A study of Mus musculus with 6 samples.

Results

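The enzymes that remove superoxide and peroxides were described here across 3 Rb-null and 3 control arrays. They are catalase (Cat), the peroxiredoxins Prdx1, Prdx2 and Prdx3, the glutathione peroxidases Gpx1 and Gpx4, the superoxide dismutases Sod1 and Sod2, thioredoxin (Txn1) and thioredoxin reductase (Txnrd1). Every probe set annotated to 1 of these 10 genes was taken, which gave 27 of the 45032 probe sets kept from the array. Probe sets annotated to a single gene covered 18192 genes, among them all of the 10 except Prdx1. The RNA was that of mouse bone marrow cells carrying both CD71 (the receptor for transferrin) and the red cell antigen Ter-119, and was read on single-colour Affymetrix arrays. Rb-null mice had the genotype EpoR-GFPcre/+; Rb fl/fl, in which both Rb1 alleles are floxed. Controls were EpoR-GFPcre/+; Rb fl/+, so they carried the same Cre at the erythropoietin receptor locus and 1 floxed allele. The Cre therefore acts where that receptor gene is active, and the controls were not wild type. The labels do not say whether arrays of a group came from separate mice, so the spread behind each p-value is that of these arrays and may be technical.

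Superoxide arises when respiration leaks electrons and when haemoglobin oxidises. Superoxide dismutase turns it into hydrogen peroxide, Sod1 in the cytosol and Sod2 in the mitochondrial matrix. Peroxide is then destroyed by catalase, by glutathione peroxidases that spend glutathione, or by peroxiredoxins that are recharged by thioredoxin and its NADPH-dependent reductase. Prdx2 is among the most abundant proteins of the red cell, and mice that lack Prdx1, Prdx2 or, in their blood-forming cells, Sod2 or Gpx4 develop anaemia.

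The median deposited intensity was 24.5 to 29.5 on the Rb-null arrays and 23.3 to 31.2 on the control arrays. Both arrays numbered 3 stood apart, with 18S ribosomal RNA control probe sets at 542 (Rb-null) and 1231 (control), against 32.6 to 66.2 on the other 4 arrays. The erythroid markers Alas2 and Slc4a1 read at least 8760 on every array. Epor read 248, 2228 and 558 on Rb-null arrays 1, 2 and 3 and 2221, 266 and 609 on the control arrays. The bright Rb1 probe set, whose place relative to the floxed part is not known here, read 4045, 3670 and 2897 on Rb-null arrays 1, 2 and 3 and 2760, 2152 and 1379 on control arrays 1, 2 and 3. It was thus higher in Rb-null and does not check the labels, on which every direction below rests.

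The enzymes did not share 1 direction. Catalase and mitochondrial Prdx3 gave less signal in Rb-null cells, by 2.56-fold and 1.96-fold, while mitochondrial Sod2, thioredoxin, Gpx4 and thioredoxin reductase gave 1.71-fold to 1.89-fold more. Gpx1, Prdx2 and the probe sets of Prdx1 differed by 1.14-fold at most. Fold changes are differences of mean log2 intensity after quantile normalization, on a scale of log2(value + 16). No single difference passed limma's test when p-values were adjusted by Benjamini-Hochberg for the 27019 probe sets fitted.

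**Figure D1:**
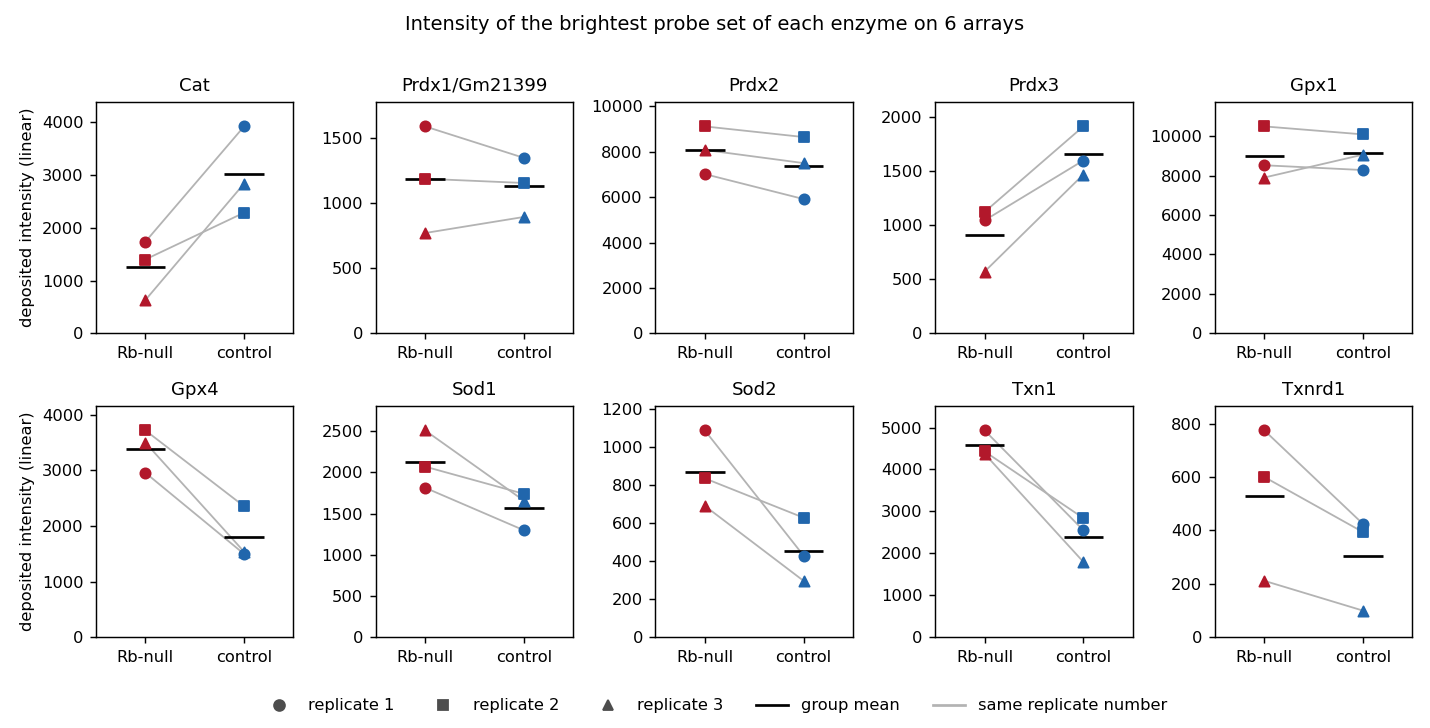
Deposited intensity on a linear axis from 0 for the brightest probe set of each enzyme, with Rb-null on the left and control on the right, symbols for replicate numbers, black bars for group means and grey lines joining arrays of the same number. Cat and Prdx3 lie lower on all 3 Rb-null arrays, and Gpx4, Sod1, Sod2 and Txn1 lie higher on all 3, while Txnrd1 overlaps and is lowest on both arrays numbered 3.

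Of the 27 probe sets, 26 passed the filter on dim signal (a mean log2 value above 5.12), and the 1 that did not, 1447761_x_at of Sod1, averaged 1.40 ± 0.84 in Rb-null cells and 4.42 ± 5.0 in controls (SD, n = 3 each) and was not tested. At adjusted p under 0.05 limma called 0 of the 26, where 0% of all fitted probe sets were called. At an unadjusted p under 0.05, 6 of the 26 were higher and 3 were lower. The shares of all fitted probe sets were 2.80% and 1.34% (4.14% in either direction). With only the brightest probe set of each of the 10 enzymes, 3 were higher and 2 lower at that threshold. The enzymes, and the lists further below, were chosen with earlier results of these data known, and probe sets of 1 gene are not independent. An excess over the shares of all probe sets is thus no test of the enzymes. Of the 26, the normalized values of the groups did not overlap for 6 that were higher and 3 that were lower, against 5.73% and 3.91% of all. In all 3 pairs of same-numbered arrays, 11 were higher and 5 lower, against 20.3% and 22.0% of all. Counted without both arrays numbered 3, 10 were higher without overlap and 4 lower, against 17.4% and 15.3% of all, a count added after the data were seen. These included all 9 that did not overlap on 6 arrays. Groups apart on 6 arrays stay apart when arrays are left out, save for changes by the renewed normalization, so that adds no support. On those 4 arrays the log2 fold changes of the brightest probe sets were -1.01 for Cat, -0.78 for Prdx3, 0.79 for Sod2, 0.74 for Gpx4, 0.76 for Txn1 and 0.65 for Txnrd1.

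Arrays of the same replicate number resembled each other, and the replicate number was also used as a block. With the block limma again called 0 of the 26, and 8 were higher and 3 lower at unadjusted p under 0.05, against 8.72% and 7.78% of all. With the block and a trended, robust estimate of the spread, a fit chosen with its results on these arrays known, 6 were higher and 3 lower at adjusted p under 0.05, against 2.24% and 1.23% of all fitted probe sets (3.47% in either direction). These 9 were both Cat probe sets, Prdx3, both Gpx4 probe sets, 2 of Sod2, the bright one of Txn1 and the bright one of Txnrd1, with limma adjusted p between 0.0201 and 0.0489. The count depended on the pairs. It was 2 without the arrays numbered 1, 10 without those numbered 2 and 8 without those numbered 3, and the 2 were Cat (1416430_at) and Prdx3.

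Both superoxide dismutases had positive log2 fold changes on their brightest probe sets, 0.92 for Sod2 and 0.38 for Sod1. Sod2, the manganese enzyme of the mitochondrial matrix, read 1090, 837 and 692 on Rb-null arrays 1, 2 and 3, against 430, 630 and 297 on the control arrays (probe set 1448610_a_at). Every Rb-null array was above every control array, and the log2 fold change was 0.92 (SE 0.29, limma adjusted p = 0.873). The next brightest Sod2 probe set, 1417193_at, read 497, 638 and 543 in Rb-null cells and 205, 403 and 232 in controls, again without overlap, with a log2 fold change of 0.99 (SE 0.30, limma adjusted p = 0.796). Its remaining probe sets were dim, at 76.8 or less, and differed by 0.21 (SE 0.46) and 0.07 (SE 0.29) on the log2 scale, so they do not show the difference of the bright ones.

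Sod1, the copper and zinc enzyme of the cytosol, read 1815, 2071 and 2511 in Rb-null cells and 1299, 1740 and 1658 in controls on its brightest probe set, 1459976_s_at. The deposited values did not overlap, though the normalized ones did, and the log2 fold change was 0.38 (SE 0.29, limma adjusted p = 1.00). Another bright probe set, 1451124_at, had 0.48 (SE 0.47) and the dimmer 1435304_at 0.35 (SE 0.63), with overlapping groups in both. The dimmest fitted one, 1440222_at, read 139, 143 and 128 in Rb-null cells and 75.2, 92.0 and 61.8 in controls, with a log2 fold change of 0.75 (SE 0.25, limma adjusted p = 0.952) and no overlap. All 4 had a positive log2 fold change, between 0.35 and 0.75, but 1435304_at ran from -0.13 to 1.01 with 1 array left out. With 1 array left out, 1459976_s_at ranged from 0.17 (without Rb-null replicate 3) to 0.49 and 1451124_at from 0.035 (without Rb-null replicate 3) to 0.83 (without control replicate 3). Ccs, the chaperone that loads copper into Sod1, read 155 ± 60.9 in Rb-null cells and 235 ± 69.5 in controls (SD, n = 3 each), a log2 fold change of -0.57 (SE 0.42) with overlapping groups.

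Catalase, which breaks peroxide down in peroxisomes and in the red cell cytosol, had the greatest difference among the 10 enzymes in the fit over 6 arrays. Its brightest probe set, 1416429_a_at, read 1735, 1400 and 629 on Rb-null arrays 1, 2 and 3, against 3924, 2288 and 2840 on control arrays 1, 2 and 3. The groups did not overlap, and the log2 fold change was -1.36 (SE 0.40, limma adjusted p = 0.771). The other Cat probe set, 1416430_at, read 364, 917 and 712 in Rb-null cells and 927, 1751 and 2961 in controls, a log2 fold change of -1.44 (SE 0.48, limma adjusted p = 0.969). Its highest Rb-null value lay just under its lowest control value. Both probe sets were lower in each of the 3 pairs, by 1.27, 0.80 and 2.00 log2 units in pairs 1, 2 and 3 for the brighter one. When 1 array at a time was left out, its log2 fold change lay between -1.67 and -1.01.

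Of the peroxiredoxins, the mitochondrial one was lower in Rb-null cells, while the cytosolic ones had log2 fold changes near 0. Prdx3, the peroxiredoxin of the mitochondrial matrix, read 1042, 1119 and 569 on Rb-null arrays and 1595, 1910 and 1465 on control arrays (1416292_at, its single probe set). All 3 Rb-null arrays lay below all 3 controls, with a log2 fold change of -0.97 (SE 0.28, limma adjusted p = 0.765). Cytosolic Prdx2 read 7016, 9117 and 8079 in Rb-null cells and 5915, 8648 and 7501 in controls, a log2 fold change of 0.09 (SE 0.26), and its second probe set had 0.18 (SE 0.28). The brighter Prdx2 probe set sat near the top of the array's range, with only 0.0688% of probe sets brighter. All 5 Prdx1 probe sets are also annotated to Gm21399, a pseudogene, and so cannot be given to Prdx1 alone. The brightest of them read 1591, 1188 and 771 in Rb-null cells and 1349, 1156 and 894 in controls, and the 5 had log2 fold changes between -0.13 and 0.18, with overlapping groups. Prdx4, the peroxiredoxin of the endoplasmic reticulum, had a log2 fold change of 0.14 (SE 0.27), and Srxn1, the sulfiredoxin that repairs over-oxidised peroxiredoxins, 0.02 (SE 0.28).

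**Figure D2:**
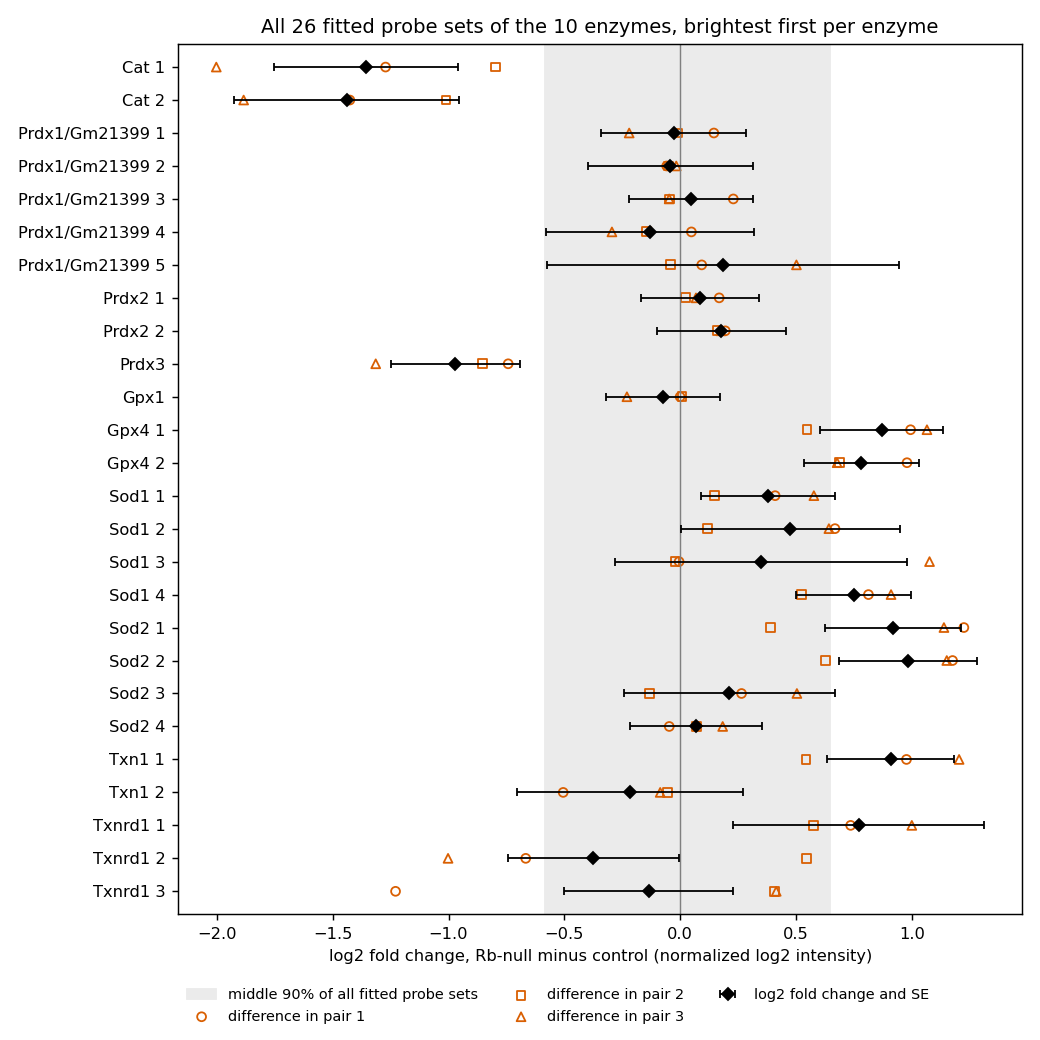
Log2 fold change of Rb-null minus control with its SE (black) for the 26 fitted probe sets, numbered from the brightest within each enzyme, with the differences in the 3 pairs of same-numbered arrays (orange) and, in grey, the range from -0.58 to 0.65 that holds the middle 90% of all fitted probe sets. Both Cat probe sets and Prdx3 lie left of the grey range, and both Gpx4 probe sets, 2 of Sod2, and the bright probe sets of Txn1 and Txnrd1 lie right of it, as does 1 of Sod1. The SE is that of the fit without the replicate block.

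The glutathione peroxidases did not share a pattern. Gpx4, which reduces lipid peroxides in membranes and has cytosolic and mitochondrial forms, read 2955, 3716 and 3497 on Rb-null arrays and 1495, 2352 and 1536 on control arrays (1451695_a_at). No Rb-null array was as low as any control, and the log2 fold change was 0.87 (SE 0.26, limma adjusted p = 0.797). Its other probe set, 1456193_x_at, read 927, 931 and 782 in Rb-null cells and 437, 565 and 468 in controls, with a log2 fold change of 0.78 (SE 0.25, limma adjusted p = 0.850). Gpx1, the main cytosolic glutathione peroxidase, read 8523, 10494 and 7900 in Rb-null cells and 8280, 10089 and 9063 in controls. Its log2 fold change was -0.07 (SE 0.24), with overlapping groups. Only 0.0333% of probe sets were brighter than the Gpx1 probe set.

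Thioredoxin and its reductase both gave more signal in Rb-null cells on their brightest probe sets. Txn1, the cytosolic thioredoxin that recharges peroxiredoxins, read 4933, 4430 and 4375 on Rb-null arrays and 2552, 2840 and 1797 on control arrays (1416119_at), the groups lying well apart. Its log2 fold change was 0.91 (SE 0.28, limma adjusted p = 0.796). A dim second Txn1 probe set, 1456734_at, averaged 67.3 ± 41.7 in Rb-null cells and 86.6 ± 71.0 in controls (SD, n = 3 each) and had -0.22 (SE 0.49). Txnrd1, the cytosolic selenoenzyme that reduces thioredoxin with NADPH, read 775, 600 and 211 in Rb-null cells and 424, 394 and 99.6 in controls on 1421529_a_at. It was higher in each pair, by 0.74, 0.58 and 1.00 log2 units in pairs 1, 2 and 3, but both arrays numbered 3 were low and the groups overlapped, and the log2 fold change was 0.77 (SE 0.54, limma adjusted p = 1.00). With the replicate block the SE was 0.17. Without control replicate 3 the log2 fold change was 0.23, and without Rb-null replicate 3 it was 1.19. Its dimmer probe sets, 1424487_x_at and 1424486_a_at, had -0.37 (SE 0.37) and -0.14 (SE 0.37), so the Txnrd1 probe sets disagree.

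Set side by side, the mitochondrial enzymes had opposite signs. Sod2, which makes peroxide in the matrix, had a log2 fold change of 0.92 and Prdx3, which removes it there, -0.97. In pairs 1, 2 and 3 Sod2 differed by 1.23, 0.39 and 1.14 and Prdx3 by -0.74, -0.85 and -1.31. The mean of these 2 enzymes minus the mean of the other 8 was -0.22, and -0.37 with Cat and Gpx4 left out of the other 8, values that average over the opposite signs. The median log2 fold change of the 10 enzymes was 0.23, beside -0.01 for all fitted probe sets, and the pair medians were 0.29, 0.08 and 0.32. It was 0.38 without the probe set shared by Prdx1 and Gm21399. Of other mitochondrial proteins, Txn2, the mitochondrial thioredoxin, had -0.35 (SE 0.31) and its reductase Txnrd2 -0.05 (SE 0.31). Nnt, which makes NADPH in mitochondria, had 0.12 (SE 0.34), and the groups overlapped for each of these genes.

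These are bulk samples, in which fewer cells of a type and less RNA per cell cannot be told apart. Markers of granulocytes were present in all samples, and their summed intensity over 14 genes was 26980 to 54035 on Rb-null arrays and 36406 to 53629 on control arrays. Of these 14 genes 13 had a negative log2 fold change, with a median of -0.45 and pair medians of -0.81, 0.00 and -0.61. In pair 2 the granulocyte median was 0.00, that of the neutrophil oxidase list -0.19 and that of the B cell list -0.33. In the same pair Cat differed by -0.80, Prdx3 by -0.85, Sod2 by 0.39, Gpx4 by 0.55, Txn1 by 0.54 and Txnrd1 by 0.58. In a fit that also took in the granulocyte level, the brightest probe sets had log2 fold changes of -1.55 for Cat, -0.95 for Prdx3, 0.82 for Sod2, 0.93 for Gpx4, 0.78 for Txn1 and 0.60 for Txnrd1. Subunits of the neutrophil oxidase, a source of superoxide, had a median of -0.71 over 4 genes, all negative, and summed to 612 to 1830 on Rb-null arrays and 1275 to 2006 on control arrays.

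**Figure D3:**
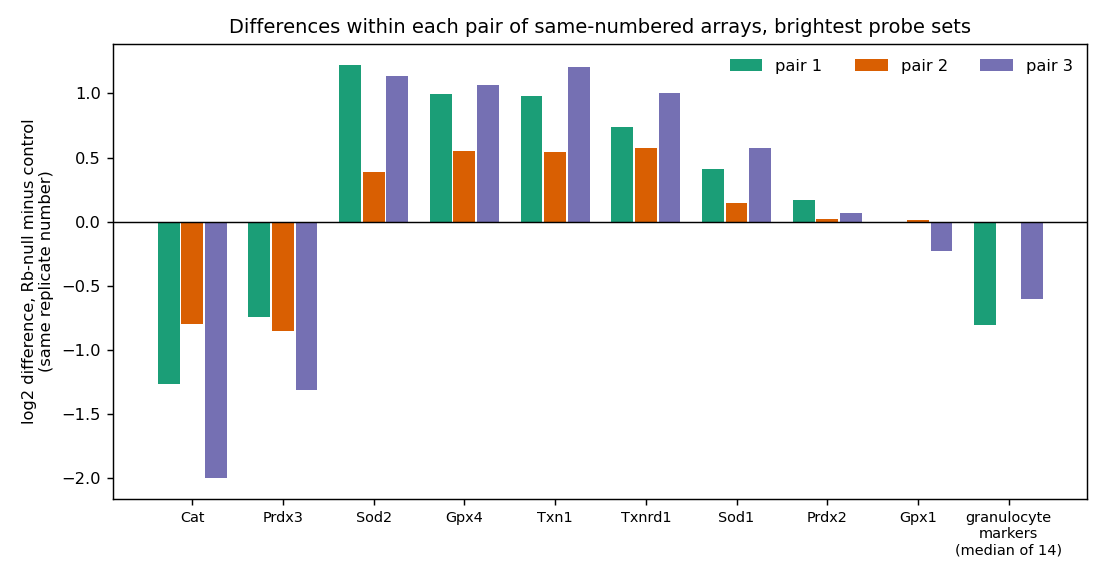
Log2 difference of Rb-null minus control in each pair of same-numbered arrays for the brightest probe sets of 9 enzymes and, at the right, the median over 14 granulocyte markers. Cat and Prdx3 are below 0 and Sod2, Gpx4, Txn1 and Txnrd1 above 0 in all 3 pairs, each closer to 0 in pair 2 than in pair 3. The granulocyte median is -0.81, 0.00 and -0.61 in pairs 1, 2 and 3, and the neutrophil oxidase and B cell lists, at -0.19 and -0.33 in pair 2, are not drawn.

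Lists for other cell types were measured in the same way. Medians are over fitted genes, while sums also took in markers below the filter on dim signal. The sums thus cover 7 B cell, 5 T and NK cell, 5 megakaryocyte and 8 erythroid markers and 6 of the mast cell list. The macrophage list of 10 genes had a median of -0.31 (8 negative) and summed to 1475 to 1863 on Rb-null arrays and 1788 to 2992 on control arrays, while B cell markers had a median of -0.55 over 6 fitted genes (5 negative) and summed to 269 to 414 on Rb-null arrays and 467 to 746 on control arrays. Lists for T and NK cells, for megakaryocytes and for mast cells with basophils and eosinophils had medians of -0.28, -0.24 and -0.33 over 3, 3 and 5 fitted genes. The T and NK cell markers summed to 190 to 339 on Rb-null arrays and 222 to 334 on control arrays, and the megakaryocyte markers to 293 to 353 on Rb-null arrays and 298 to 531 on control arrays. The mast cell list summed to 149 to 1183 on Rb-null arrays and 171 to 1395 on control arrays. The erythroid list had a median of 0.05 over 7 fitted genes and summed to 36699 to 43515 on Rb-null arrays and 36370 to 38400 on control arrays. The part of granulocytes and of the other cell types in the enzymes' differences was not tested. The fit with the granulocyte level did not take in the replicate number. That level, the mean log2 value of the 14 granulocyte markers, was 9.40, 10.69 and 9.96 on Rb-null arrays 1, 2 and 3. On control arrays 1, 2 and 3 it was 10.09, 10.63 and 10.49.

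Around the 10 enzymes stood 75 further antioxidant genes in 6 lists, of which 64 passed the filter. Limma called 0 of the 64, with and without the block, and 3 were higher and 4 lower at unadjusted p under 0.05 without the block, where the shares of all fitted probe sets were 2.80% and 1.34%. With the block 7 were higher and 16 lower, against 8.72% and 7.78% of all. Their median log2 fold change was -0.15. With the block and the trended, robust spread, 2 were higher and 6 lower at adjusted p under 0.05, against 2.24% and 1.23% of all. The higher ones were Nfe2l2 and Mafg, and the lower ones Glrx, Taldo1, Gstm5, Gstp1, Selenow and Tkt, the transketolase of the pentose phosphate pathway, which is named after its values were seen.

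Genes that make and recycle glutathione had both signs, with a median of -0.01 over the 13 fitted genes that supply glutathione and NADPH. Gclm and Gclc, the subunits of the enzyme that limits glutathione synthesis, had 0.50 (SE 0.26) and 0.43 (SE 0.32). Gclm read 4187 ± 348 in Rb-null cells and 2903 ± 324 in controls (SD, n = 3 each), and the groups did not overlap. Gsr, glutathione reductase, had 0.52 (SE 0.28), with no overlap in normalized values but overlap in deposited ones. Gss, which completes glutathione, had -0.39 (SE 0.26) and the pentose phosphate enzyme Taldo1 -0.59 (SE 0.27), both without overlap on either scale. Normalized values thus did not overlap for 2 higher and 2 lower of these 13 genes, against 5.73% and 3.91% of all fitted probe sets. Pgd, of the same pathway as Taldo1, had -0.58 (SE 0.38). Of the thioredoxin and glutaredoxin genes, with a median of -0.04 over 12, Glrx, the cytosolic glutaredoxin, read 330 ± 214 in Rb-null cells and 764 ± 485 in controls (SD, n = 3 each), a log2 fold change of -1.30 (SE 0.64). Txnip, the inhibitor of thioredoxin, had 0.58 (SE 0.30), Txnrd3 0.45 (SE 0.37), and Glrx5, which serves iron-sulfur clusters in mitochondria, -0.03 (SE 0.26).

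The glutathione transferases, which couple glutathione to reactive compounds, had negative log2 fold changes in 10 of 10 fitted genes, with a median of -0.45. The 4 transferases below the filter on dim signal were not tested. Gsta3, Gsta4, Gstm2 and Gstz1 had positive values of 0.33, 0.019, 0.10 and 0.0038. In all fitted probe sets the median was -0.01. Gstm5 read 337 ± 140 in Rb-null cells and 688 ± 321 in controls, and Gstp1 672 ± 201 in Rb-null cells and 1075 ± 301 in controls (SD, n = 3 each). Their log2 fold changes were -1.02 (SE 0.34, limma adjusted p = 0.952) and -0.73 (SE 0.28, limma adjusted p = 1.00). The groups of both did not overlap in normalized values. The pair medians of this list were -0.56, -0.19 and -0.66, and those of the granulocyte markers -0.81, 0.00 and -0.61.

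Gpx1, Gpx4 and Txnrd1 are selenoproteins, which carry selenocysteine at the active site, and 11 genes of other selenoproteins and of selenocysteine synthesis were set beside them. Of the 11, 9 had a negative log2 fold change, with a median of -0.34. Selenow, a small selenoprotein of the thioredoxin fold, read 226 ± 107 in Rb-null cells and 518 ± 96.4 in controls (SD, n = 3 each), a log2 fold change of -1.25 (SE 0.32, limma adjusted p = 0.652). Selenot, of the endoplasmic reticulum, had -0.86 (SE 0.32, limma adjusted p = 1.00). On the other side stood Sephs1 at 0.73 (SE 0.29), while Sephs2, the selenophosphate synthetase of the pathway, had -0.16 (SE 0.70). Beside them Gpx4 stood at 0.87, Txnrd1 at 0.77 and Gpx1 at -0.07.

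**Figure D4:**
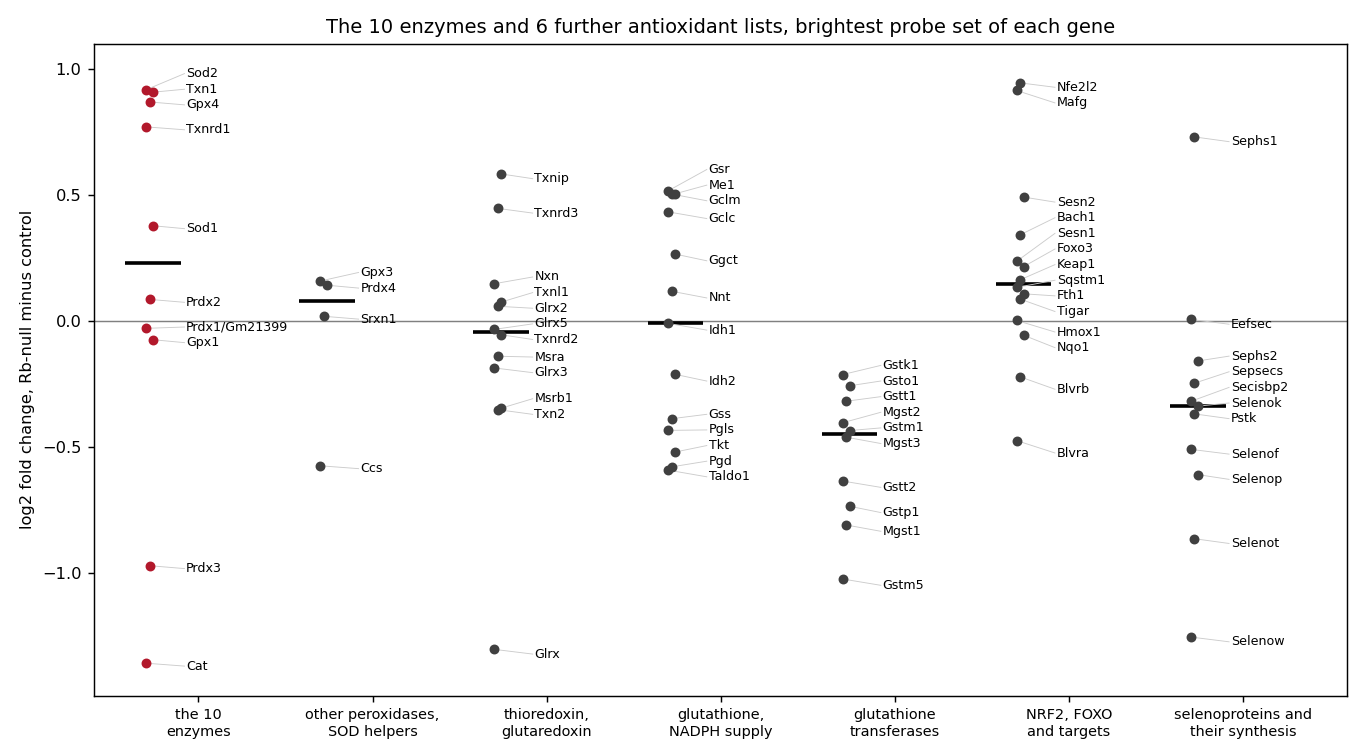
Log2 fold change of Rb-null minus control for the brightest probe set of each fitted gene, with the 10 enzymes in red at the left, 6 further antioxidant lists in dark grey and a black bar for each list's median. The 10 enzymes run from Cat at -1.36 to Sod2 at 0.92, and Nfe2l2 at 0.95 and Mafg at 0.91 lie at the top of their list. All 10 fitted glutathione transferases lie below 0, and the 4 below the filter are not drawn.

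Several of the enzymes are textbook targets of NRF2, encoded by Nfe2l2, which pairs with small Maf proteins such as Mafg on antioxidant response elements. Nfe2l2 read 470 ± 140 in Rb-null cells and 241 ± 103 in controls, and Mafg 888 ± 136 in Rb-null cells and 445 ± 76.6 in controls (SD, n = 3 each). Their log2 fold changes were 0.95 (SE 0.33, limma adjusted p = 1.00) and 0.91 (SE 0.28, limma adjusted p = 0.824), and the groups did not overlap in normalized values, nor for Mafg in deposited ones. Keap1, which holds NRF2 back, had 0.16 (SE 0.44), and the NRF2 target Hmox1, which degrades heme, 0.00 (SE 0.71). Blvra and Blvrb, the biliverdin reductases, had -0.47 (SE 0.37) and -0.22 (SE 0.28). Foxo3, which drives antioxidant genes in mouse erythroid cells, had 0.22 (SE 0.50), and the sestrins Sesn1 and Sesn2 0.24 (SE 0.25) and 0.49 (SE 0.36). The list of 14 fitted genes had a median of 0.15, with 11 positive. It mixes genes that control NRF2 and FOXO, Keap1 among them, with targets, so the count does not describe NRF2 targets alone.

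Promoters of all 10 enzymes were searched on both strands for the element TGACNNNGC, in RefSeq sequence of GRCm38.p6 from 250 bases before to 50 bases after each of 15 annotated starts. It was found in 3 of the 15, those of Prdx1, Sod1 and a Txnrd1 start, against 12.4% of 32851 promoters of all genes. The matches are shown because Txnrd1 was among the enzymes with more signal in Rb-null cells, whereas the Prdx1 probe sets had log2 fold changes near 0. Each lies on the opposite strand, so the capitals read as its reverse complement, and each window ends before the start of transcription.
Prdx1 chr4:116685451-116685489 (+): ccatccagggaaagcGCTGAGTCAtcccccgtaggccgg
Sod1 chr16:90220691-90220729 (+): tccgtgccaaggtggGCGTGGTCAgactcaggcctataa
Txnrd1 chr10:82859099-82859137 (+): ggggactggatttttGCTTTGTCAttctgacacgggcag
The promoters of Sod2, Txn1 and Gpx4, whose signal was higher in Rb-null cells, did not hold these letters in the windows searched, and nothing follows from that about the factor.

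The motif CCNCNCCC, bound by the erythroid factor KLF1, was found in 12 of the 15 promoters and in all 10 genes, against 49.5% of all promoters. The GATA motif, searched as the letters GATA after A or T and before A or G, was found in 3 of the 15, all of Gpx4 and some of them overlapping, against 29.8% of all. For the enzymes with less signal in Rb-null cells, the following windows carry a KLF1 match in capitals on the strand of the gene.
Cat chr2:103485229-103485266 (-): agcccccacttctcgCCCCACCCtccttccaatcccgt
Prdx3 chr19:60874608-60874645 (-): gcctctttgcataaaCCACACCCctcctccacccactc
The enzymes on both sides of 0 and those near 0 hold this motif, so its presence does not separate them. A match is a description of the sequence, and binding was not measured here.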

How the data were processed

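The authors deposited 1 linear intensity for each probe set and array. The steps that led from the scans to these values are not stated in the sources used. Per the labels, total RNA was isolated by Trizol and QIAGEN columns, and the label was biotin. Of 45101 probe sets, 64 control probe sets, 4 empty ones and 1 with a value above the 16-bit range were left out. Values were taken as log2(value + 16) and, as array medians differed by 0.264 (limit 0.2), quantile normalized. The fit took those whose mean exceeded the 40th percentile and was run in R 4.3.3 with limma 3.58.1, 2-sided, with Benjamini-Hochberg adjustment over 27019 probe sets. The fit was tested on simulated data. An exact permutation test of 3 against 3 arrays cannot go below p = 0.1 and was not used. The number of arrays limits precision.

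Deviations from the group mean correlated at 0.639, 0.621 and 0.667 between arrays of the same replicate number, which comes from the titles. Otherwise they correlated at 0.0719 at most. Deviations from a group mean cancel out within the group, so high matched values lower the unmatched ones, which give no separate support for pairing. Both arrays numbered 3 also had high 18S signal, at 542 (Rb-null) and 1231 (control). The number was treated as pairing the arrays in the pair differences and in the fits with the block. SEs and adjusted p-values of single genes come from the fit without the block unless the block is named. For Cat 1416429_a_at the SE was 0.40 without the block and 0.25 with it.

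Other genes were represented by their brightest probe set with 1 symbol. Named were a set list of genes and up to 2 more of each list with the smallest p. Prdx5, Prdx6 and G6pdx are not analysed here. Enzymes and lists were chosen with earlier results of these data known. Alternatives covered scaling, offset, filter, block, spread estimate, array weights, a granulocyte covariate and left-out arrays.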

Additional observations from a re-analysis of the deposited data

How the results depend on the processing

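Over 18 other settings limma called 0 probe sets in all and 0 of the enzymes' probe sets, and the replicate block changed no call (lowest adjusted p = 0.0999 for the enzymes). With the replicate block and a trended, robust spread, added after seeing the data, 938 probe sets and 9 of the enzymes' probe sets passed. Without the arrays numbered 1 these were 145 and 2, without those numbered 2 they were 1212 and 10, and without those numbered 3 they were 1381 and 8. The median of the 10 enzymes was 0.17 to 0.30 in fits that left out 1 array, and 0.38 without the probe set shared by Prdx1 and Gm21399. The mean of Sod2 and Prdx3 minus that of the other enzymes was -0.28 to -0.15 in those fits. The brightest probe sets of Cat, Prdx3, Gpx4, Sod1, Sod2, Txn1 and Txnrd1 kept their sign under every alternative run. Signs turned for the probe sets that follow, of which Sod1 1435304_at had the largest log2 fold change in the main fit, 0.35. Prdx1 1434731_x_at (-0.03) was 0.021 as deposited, 0.022 with median scaling, 0.052 with array weights and 0.069 without both arrays numbered 3, and 1436691_x_at (-0.04) was 0.036 both as deposited and with median scaling. Gpx1 was 0.0043 without both arrays numbered 3, and Sod1 1435304_at was -0.014 there and -0.30 with the granulocyte covariate. With 1 array left out, log2 fold changes ran from -0.27 to 0.16 (1434731_x_at), -0.32 to 0.22 (1436691_x_at), -0.11 to 0.14 (1416000_a_at), -0.48 to 0.30 (1433866_x_at) and -0.63 to 0.85 (1437014_x_at) for Prdx1. They ran from -0.020 to 0.16 for Prdx2 1418506_a_at, -0.13 to 1.01 for Sod1 1435304_at, -0.25 to 0.53 for Sod2 1454976_at, -0.12 to 0.20 for Sod2 1417194_at, -0.57 to 0.28 for Txn1 1456734_at and -0.34 to 0.19 for Txnrd1 1424486_a_at. The causes were not tested.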
